A study of Homo sapiens with 24 samples.

Results

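The cytosolic ribosomal proteins were measured as mRNA, on bead arrays from Illumina, in HCC1954 and JIMT1, both PIK3CA-mutant breast cancer lines that do not respond to PI3Kα inhibition alone. The members were chosen by gene symbol, RPL or RPS followed by a number and at most the endings A, X or L, together with RPSA and the stalk proteins RPLP0, RPLP1 and RPLP2, and a gene entered when 1 or more groups had a detected probe on each of their 3 arrays (detection p-value under 0.05). This gave 71 genes out of 12109 genes measured, of which 26 belong to the small subunit, 43 to the large subunit and 2 to the stalk (RPLP1 and RPLP2). Each line was treated for 4 hr with BYL719 (a PI3Kα inhibitor, 1 μM) plus GSK2334470 (a PDK1 inhibitor, 1 μM), called the combination here, with BYL719 alone, with GSK2334470 alone, or with DMSO as the vehicle. These 8 groups held 3 arrays each, 24 arrays in all, numbered 1 to 3 within a group. Each line stands for 1 tumour, and each treatment was given at 1 dose and 1 time.

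Of 82 RefSeq symbols that match the rule, 73 had a probe named in the array annotation used here, 121 probes in all, and 116 of these probes passed the detection filter. RPL10 was detected on at most 2 arrays by its 2 probes, and RPL3L, a copy of RPL3 known from muscle, was detected on 0 arrays, so neither was tested. The other 9 symbols were not analysed here.

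Ribosomal proteins assemble with ribosomal RNA into the small and large subunits of the cytosolic ribosome, and a growing cell makes them in matched amounts. Their mRNAs carry a 5′ terminal oligopyrimidine tract, a cytosine at the cap followed by an unbroken stretch of cytosine and uracil, through which mTORC1 controls their translation by way of LARP1 and the 4E-BP proteins. PI3K, PDK1, AKT and SGK lie upstream of mTORC1. Control of translation through this tract acts on loading of the mRNA onto ribosomes, which an array of total RNA does not measure.

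The start sites are shown because the tract defines this class of mRNA. A start window was found in the RefSeq promoter table (GRCh38.p14) for 60 of the 71 members. The windows below hold 14 bases before the annotated start and 16 bases from it on, so that the fifteenth letter is the first transcribed base, on the strand of the gene. Capitals mark the longest run of C and T that comes within 5 bases of the start. The first 8 belong to the members that changed under the combination in JIMT1 cells, the next 3 to the members called in other treatment comparisons, and the last 4 to RPS6, RPS27 and the paralogs RPS27L and RPL10L.
RPL29 (chr3:51995880-51995909, minus strand): accgcagCCCCTTTCTCTTCCggttctagg
RPS7 (chr2:3575246-3575275, plus strand): tttccgCCCTCCTCCTCgcgctgtttccgc
RPL36A (chrX:101390997-101391026, plus strand): ttgcctcgcggTTTCTTTCTTTCCgcgccg
RPL34 (chr4:108620562-108620591, plus strand): aaggCTTTTTTCTTCCTCTTCCggggacgt
RPL17 (chr18:49492450-49492479, minus strand): CTCTTTCCCTaagcagcctgaggtgagtgt
RPL9 (chr4:39458907-39458936, minus strand): tacgtaatgaCgacagacgttctttctttg
RPL36AL (chr14:49620611-49620640, minus strand): tgTTTCTTCCCTTTCCTgttaggcgagagc
RPL13A (chr19:49487594-49487623, plus strand): gacaaaaCCTCCTCCTTTTCCaagcggctg
RPS3 (chr11:75399504-75399533, plus strand): cccgcgagccaCTTCCTTTCCTTTCagcgg
RPL39 (chrX:119791615-119791644, minus strand): tcttccgccagCTTCCCTCCTCTTCCTTTC
RPL28 (chr19:55385918-55385947, plus strand): cgcccctcgCCTTCCTCTTTCCgtctcagg
RPS6 (chr9:19380221-19380250, minus strand): agcggaagttggCCCTCTTTTCCgtggcgc
RPS27 (chr1:153990748-153990777, plus strand): tttccgctttcgCTCCTTTCCggcggtgac
RPS27L (chr15:63157462-63157491, minus strand): agttgatgCCgagcgcagatcgcttgcagc
RPL10L (chr14:46651766-46651795, minus strand): aggcgtagTTaagagagcgcattttgactt

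The run was 8 or more bases long in 46 of the 60 members (76.7%), with a median of 11 bases, against 2325 of 15778 other protein-coding genes in the table (14.7%) with a median of 4 bases. Where a gene had several annotated starts, the start with the longest run was taken for members and other genes alike. The run of RPL39 went on for 22 bases, past the end of its window. The letters CTTTCC were in the window of 19 members (31.7%) and of 300 other protein-coding genes (1.9%) on the strand of the gene, and in 0 members and 139 other genes on the opposite strand (0.881%). The letters TTCCG, which can overlap CTTTCC, were in 19 members (31.7%) and 922 other genes (5.84%) on the strand of the gene, and in 4 members and 734 other genes on the opposite strand (4.65%). RPL9, RPS27L and RPL10L had no run longer than 2 bases that came within 5 bases of the annotated start. The window of RPL9 holds a longer run of C and T, which begins after this limit and was not counted. RPL17's run of 16 bases began before its window and ended 5 bases before its annotated start.

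The members sat at the upper end of the intensity scale, which bears on how small a change could be seen. Their median level over the 24 arrays was 13.94 on the normalized log2 scale, against 8.35 for all genes, and 59 members lay at 12 or above. The level of a probe does not rank mRNA amounts between genes. RPL41, the shortest ribosomal protein, had the brightest member probe (15.02) and RPL10L, a copy of RPL10 known from testis, the dimmest (5.42). RPL10L was the only member not detected on all 24 arrays. The median SD between arrays of a group was 0.115 for the members and 0.162 for all genes. The 95% interval of a member's log2 fold change reached a median of 0.21 to either side in each comparison of 2 groups. RPL41 had a mean intensity of 33300, where the highest intensity of an array was 30694.1 to 40580.5. Whether probes this bright show a change in full was not tested, and the intervals do not cover this.

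Over all 24 arrays the median intensity was 48.5 to 81.9, 41% to 45.2% of probes were detected, and arrays of a group correlated at r of 0.99 or more. All 5 epithelial markers and all 4 genes tested from the HER2 amplicon were detected on every array of both lines. Of 9 markers of other cell types with a probe, 6 were detected on at least 1 array, and PTPRC, CD3E and PDGFRB on 0 arrays.

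The combination was set against DMSO to ask whether blocking PI3Kα and PDK1 together changed the mRNA of the ribosomal proteins within 4 hr. In JIMT1 cells, 7 members fell and 1 rose (limma, Benjamini-Hochberg adjusted p under 0.05 over all 12109 genes). The 8 called members were 11.3% of the 71, while 21.3% of all genes were called in this comparison. By direction, 9.86% of the members were lower, against 8.84% of all genes, and 1.41% were higher, against 12.5% of all genes. The members that fell include 6 that encode large-subunit proteins (RPL29, RPL36A, RPL34, RPL17, RPL9 and RPL36AL) and 1 that encodes a small-subunit protein (RPS7). Their fold changes lay between -0.25 and -0.69 on the log2 scale. Of the 12 members with a mean level below 12, 4 fell (33.3%), and of the 59 at 12 or above, 3 fell (5.08%). The part of the level in this was not tested. With arrays scaled to their medians in place of quantile normalization 1 of the 71 was called. It was RPL23 (-1.41, adjusted p = 0.04, limma), which is not among these 8 and is described below. Without JIMT1 DMSO replicate 1 the count was 3.

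RPL29, a large-subunit protein, had levels of 10.45, 10.35 and 10.50 in the JIMT1 combination arrays, against 11.05, 11.16 and 11.16 in the JIMT1 DMSO arrays. The groups did not overlap, and the BYL719 and GSK2334470 arrays lay between them, at 10.73 to 10.86 and 10.66 to 11.01. The log2 fold change was -0.69 ± 0.17 (SE, adjusted p = 0.0065, limma). The other RPL29 probe gave -0.60 ± 0.18 in the same comparison.

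RPS7, a small-subunit protein that can also bind MDM2, had 10.90, 10.81 and 11.06 in the JIMT1 combination arrays and 11.46, 11.27 and 11.46 in the JIMT1 DMSO arrays, a log2 fold change of -0.47 ± 0.14 (adjusted p = 0.019, limma). Every combination array was below every DMSO array. RPL36A, a large-subunit protein with a near-identical copy in RPL36AL, had 9.85, 9.85 and 9.99 in the combination arrays and 10.24, 10.33 and 10.34 in the DMSO arrays (-0.41 ± 0.13, adjusted p = 0.029, limma). RPL36AL moved the same way by less, with 13.24, 13.23 and 13.30 under the combination and 13.52, 13.53 and 13.45 under DMSO (-0.25 ± 0.08, adjusted p = 0.027, limma). Both copies thus had all 3 combination arrays below all 3 DMSO arrays, and the second RPL36AL probe gave -0.34 ± 0.09.

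RPL34 changed by -0.38 ± 0.11 (adjusted p = 0.015, limma), with 11.68, 11.54 and 11.67 in the combination arrays against 12.08, 11.96 and 11.99 in the DMSO arrays of JIMT1. Its other probe gave 0.06 ± 0.13, so the fall was seen by 1 of its 2 probes. RPL17, which lies at the peptide exit tunnel, had 13.65, 13.48 and 13.42 under the combination and 13.96, 13.84 and 13.84 under DMSO (-0.37 ± 0.10, adjusted p = 0.012, limma). RPL9, at the base of the stalk, had 13.27, 13.22 and 13.53 under the combination and 13.68, 13.61 and 13.67 under DMSO (-0.31 ± 0.10, adjusted p = 0.029, limma). The arrays of the pair of groups did not overlap for any of these 3 genes. The dimmest of the 3 RPL9 probes fell by 0.62 on the log2 scale. Another had 12.27 and 12.26 on combination replicates 1 and 2, within its DMSO range of 12.06 to 12.5. It was low only on combination replicate 3, at 8.67.

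RPL13A, which can leave the ribosome to silence inflammatory mRNAs as part of the GAIT complex, was the member that rose. It had 12.93, 12.87 and 12.85 in the JIMT1 combination arrays, against 12.59, 12.41 and 12.69 in the JIMT1 DMSO arrays, with no overlap (0.32 ± 0.09, adjusted p = 0.016, limma). In HCC1954 cells it had 12.65, 12.48 and 12.67 under the combination and 12.39, 12.27 and 12.41 under DMSO. This difference of 0.24 ± 0.09 in HCC1954 did not pass (adjusted p = 0.087, limma), although here too the arrays did not overlap.

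RPL23, which binds MDM2 and is named here after its values were seen, had the widest difference of all members in JIMT1 but did not pass. Its levels were 13.11, 13.06 and 9.72 in the combination arrays and 13.40, 13.35 and 13.18 in the DMSO arrays (-1.35 ± 0.51, adjusted p = 0.066, limma). A single array, JIMT1 combination replicate 3, carried the difference, with a bead intensity of 1009 from 11 beads, against 9873 and 6748 on the other combination arrays. Without that array the log2 fold change was -0.227 (adjusted p = 0.13, limma), and over the 15 other settings the adjusted p ranged from 0.012 to 0.18. The RPL9 probe described above was low on the same array, at 8.67 against 12.27 and 12.26 on the other combination arrays.

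Beyond the calls, the members of JIMT1 cells lay slightly to the lower side under the combination. Their median log2 fold change was -0.08, against 0.02 for all genes, and 17 of 71 were above 0. The mean level of the 71 members was 13.208 to 13.272 in the combination arrays and 13.348 to 13.364 in the DMSO arrays, and without RPL23 it was 13.252 to 13.275 under the combination and 13.351 to 13.363 under DMSO. In 22 members all 3 combination arrays were below all 3 DMSO arrays, and in 1 they were all above. Such separation was seen in 39.3% of all 12109 genes, with 2136 below and 2624 above. The small-subunit and large-subunit members had the same median, -0.08. Over all members the JIMT1 median was -0.01 with BYL719 alone and -0.02 with GSK2334470 alone. Under median scaling it was -0.124 for the combination, -0.094 for BYL719 and -0.113 for GSK2334470, against 0.029, -0.023 and -0.01 for all genes.

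**Figure D1:**
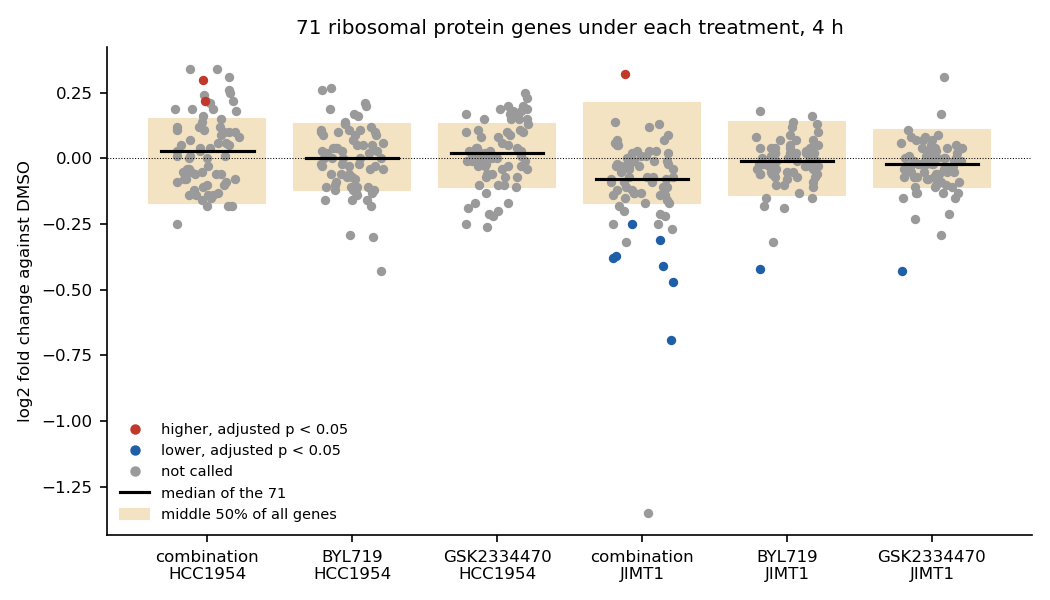
Log2 fold change against DMSO of each of the 71 ribosomal protein genes (points) in the 6 treatment comparisons, 3 arrays per group. Coloured points were called at an adjusted p under 0.05, black lines are the medians of the 71 (0.03 for the combination in HCC1954 and -0.08 in JIMT1), and shaded boxes span the middle 50% of all 12109 genes; the lone point near -1.35 is RPL23.

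In HCC1954 cells, 2 members rose under the combination, RPL39 and RPS3, and 0 fell. They were 2.82% of the members, while 15.3% of all genes were called, 6.96% higher and 8.3% lower. RPL39, a small protein of the exit tunnel, had 14.44, 14.25 and 14.23 in the combination arrays and 14.09, 14.13 and 14.05 in the DMSO arrays (0.22 ± 0.07, adjusted p = 0.042, limma). RPS3, which lies at the mRNA entry site and also acts in DNA repair and NF-kB signalling, had 14.19, 13.99 and 14.17 under the combination and 13.92, 13.65 and 13.86 under DMSO (0.30 ± 0.10, adjusted p = 0.041, limma). Neither gene's groups overlapped, and both calls lay close to the threshold: RPL39 was lost in 7 and RPS3 in 8 of 15 other settings. Both were lost with arrays scaled to their medians and without HCC1954 combination replicate 1, where 0 members were called.

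RPL14 (0.34 ± 0.18, adjusted p = 0.22), RPL37 (0.34 ± 0.14, adjusted p = 0.10) and RPL10L (0.31 ± 0.28, adjusted p = 0.53) had wider differences than these in HCC1954 but did not pass in limma. The median over the members was 0.03, against 0 for all genes, and 41 of 71 were above 0. Under median scaling these medians were -0.02 and -0.123. In 7 members all combination arrays were above all DMSO arrays and in 4 below. Of all 12109 genes, 28.9% were separated, 1683 above and 1812 below. For 63 of the 71 members the 95% interval of this fold change stayed within 0.5 of 0 on the log2 scale, and for 59 of 71 in JIMT1.

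Whether the combination acted differently on the members of the 2 lines was tested directly, as the effect in HCC1954 minus that in JIMT1. This difference was called for 0 of 71 members by limma, with 7 at an unadjusted p under 0.05. Of all 12109 genes, 4.48% were called, and 2229 had an unadjusted p under 0.05. The median difference of the members was 0.14, against -0.04 for all genes, and it was above 0 in 56 of 71. After RPL23 (1.25 ± 0.72, adjusted p = 0.38), the widest were RPS7 (0.51 ± 0.20, adjusted p = 0.16) and RPL29 (0.45 ± 0.24, adjusted p = 0.35). The fall of RPS7 and RPL29 in JIMT1 was therefore not shown to differ from HCC1954, where RPS7 changed by 0.04 and RPL29 by -0.25 on the log2 scale. The second probes in HCC1954 gave 0.12 for RPS7 and 0.03 for RPL29.

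Each agent was also given alone. BYL719 changed 0 of 71 members in HCC1954 by limma, with 5 below 0.05 before adjustment, and 0 by the methods' t-test (4 before adjustment). Of all 12109 genes, 3.86% were called by limma, and 2008 were below 0.05 before adjustment. The widest differences there were in RPL29 (-0.43 ± 0.17, adjusted p = 0.20), RPL31 (-0.30 ± 0.11, adjusted p = 0.16) and RPS6 (-0.29 ± 0.09, adjusted p = 0.10), and none passed. The second probe of RPL29 gave -0.39 and that of RPS6 gave 0.01. GSK2334470 in HCC1954 likewise changed 0 members by limma, with 9 below 0.05 before adjustment, and 0 by the methods' t-test (4 before adjustment). Only 0.00826% of all 12109 genes were called by limma in that comparison, and 1675 were below 0.05 before adjustment. RPS3A (-0.26 ± 0.10, adjusted p = 0.23), RPL39 (0.25 ± 0.07, adjusted p = 0.14) and RPL5 (-0.25 ± 0.09, adjusted p = 0.23) were widest. The 95% interval stayed within 0.5 of 0 for 64 members under BYL719 and for 68 under GSK2334470.

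In JIMT1 cells each agent alone lowered 1 member, RPL28, a large-subunit protein. RPL28 had 7.97, 7.81 and 8.02 with BYL719 and 7.85, 7.92 and 7.98 with GSK2334470, against 8.31, 8.34 and 8.41 with DMSO. Both sets of treated arrays lay below all DMSO arrays, by -0.42 ± 0.08 for BYL719 (adjusted p = 0.00086, limma) and by -0.43 ± 0.08 for GSK2334470 (adjusted p = 0.0045, limma). The share of all genes called was 11.4% for BYL719 and 1.28% for GSK2334470. With both agents together RPL28 stood at 8.38, 8.31 and 8.45, overlapping with DMSO (0.03 ± 0.08, adjusted p = 0.82, limma). RPL29 was next, with -0.32 ± 0.17 for BYL719 (adjusted p = 0.29) and -0.29 ± 0.17 for GSK2334470 (adjusted p = 0.53), and did not pass, nor did RPL10L (-0.19 ± 0.28 and 0.31 ± 0.28). Under median scaling the RPL28 calls were lost, with 0 members called for either agent.

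In HCC1954, RPL28 had 7.50, 7.43 and 7.52 with BYL719, 7.31, 7.27 and 7.27 with GSK2334470 and 7.39, 7.31 and 7.48 with DMSO, and neither agent's difference passed. The BYL719 effect differed between the lines for 1 member, RPL28, by 0.51 ± 0.11 (HCC1954 minus JIMT1, adjusted p = 0.017, limma), while 1.32% of all genes were called. RPL14 (0.33 ± 0.25, adjusted p = 0.69) and RPS6 (-0.31 ± 0.13, adjusted p = 0.36) had the next widest differences and did not pass. RPL28 had 1 probe, which lay at 7.8 on the log2 scale.

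The combination was set against each agent to ask what the second agent added. RPL28 was the member called in most of these comparisons. In JIMT1 it was 0.45 ± 0.08 higher with the combination than with BYL719 (adjusted p = 0.0042, limma), and it was the 1 member called, against 1.18% of all genes. RPL23 (-1.22 ± 0.51, adjusted p = 0.27), with the low array described above, and RPL36A (-0.45 ± 0.13, adjusted p = 0.10) did not pass there. Against GSK2334470 in JIMT1, 5 members were called and 11.2% of all genes. RPL28 (0.46 ± 0.08, adjusted p = 0.00041) and RPL13A (0.42 ± 0.09, adjusted p = 0.0052) were higher with the combination in limma. RPL36A (-0.49 ± 0.13, adjusted p = 0.018), RPL34 (-0.39 ± 0.11, adjusted p = 0.024) and RPL36AL (-0.26 ± 0.08, adjusted p = 0.035) were lower, and these 3 also fell against DMSO. The count was 2 without JIMT1 GSK2334470 replicate 2 and 0 under median scaling.

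In HCC1954, RPL28 was higher with the combination (7.67, 7.51 and 7.67) than with GSK2334470 (7.31, 7.27 and 7.27), by 0.33 ± 0.08 (adjusted p = 0.0075, limma), as the only member called against 8.95% of all genes. RPL14 (0.44 ± 0.18, adjusted p = 0.14) and RPL29 (-0.33 ± 0.17, adjusted p = 0.29) did not pass. RPL39 was higher with the combination than with BYL719, where it had 13.96, 14 and 14.09 (0.29 ± 0.07, adjusted p = 0.029, limma), again as the only member called, against 2.73% of all genes. This call was lost in 7 of 15 other settings, among them median scaling and the omission of HCC1954 combination replicate 1, BYL719 replicate 1 or BYL719 replicate 2. RPL37 (0.25 ± 0.14, adjusted p = 0.43) and RPL26 (0.24 ± 0.12, adjusted p = 0.41) came next and did not pass. These comparisons share the combination arrays with those against DMSO.

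**Figure D2:**
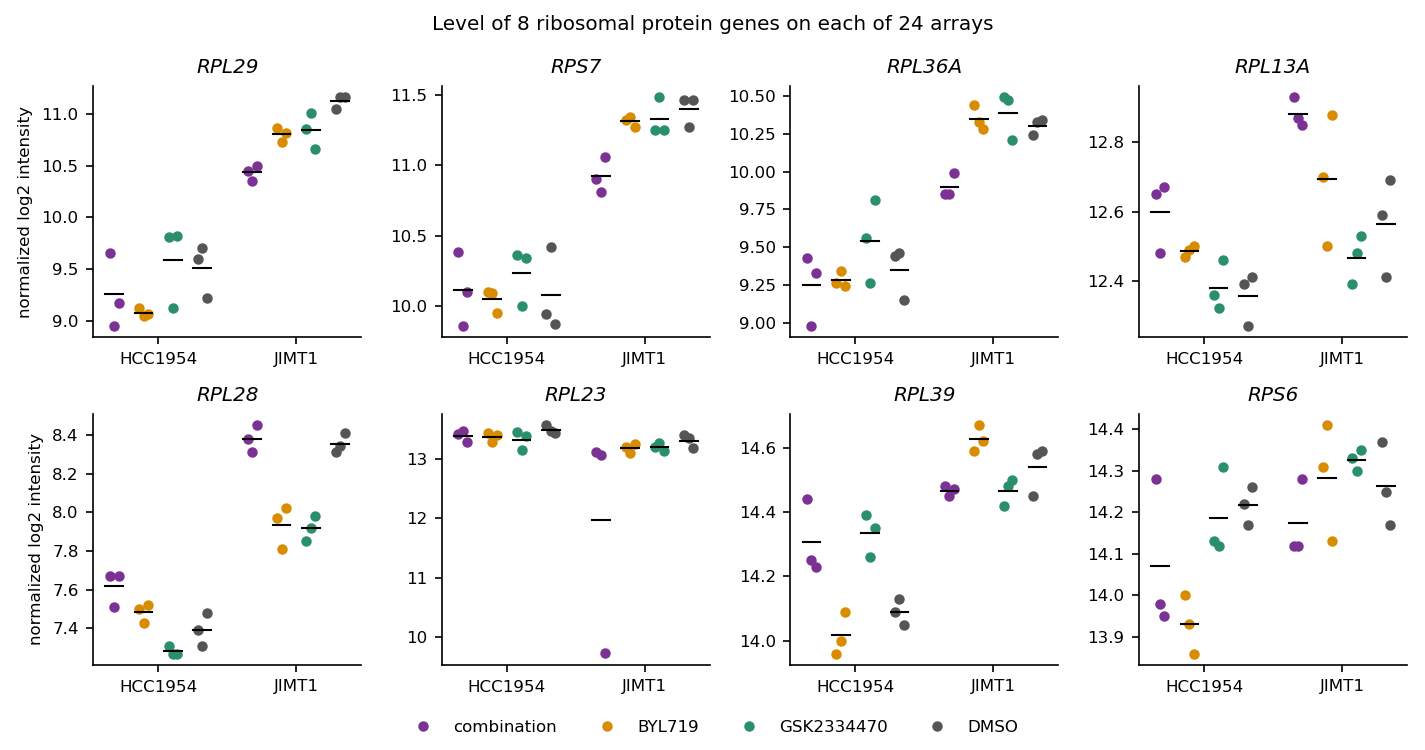
Normalized log2 intensity of 8 members on each of the 24 arrays, with combination, BYL719, GSK2334470 and DMSO in this order within each line; points are arrays and black lines the means of 3. RPL29, RPS7 and RPL36A are lowest under the combination within JIMT1, RPL28 is low in JIMT1 under each single agent, and RPL23 has 1 low array, at 9.72.

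Members with known roles in signalling, at the stalk or outside the ribosome were looked at whatever their values. RPS6, the substrate of the S6 kinases downstream of mTORC1, had 14.28, 13.98 and 13.95 under the combination and 14.22, 14.17 and 14.26 under DMSO in HCC1954, and 14.12, 14.12 and 14.28 under the combination and 14.37, 14.25 and 14.17 under DMSO in JIMT1. The arrays overlapped in both lines (-0.14 ± 0.09 in HCC1954 and -0.09 ± 0.09 in JIMT1), and the 95% intervals reached -0.34 and -0.28. The second RPS6 probe gave 0.1 in HCC1954 and -0.08 in JIMT1. RPS6 phosphorylation was not part of these data.

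RPL5 and RPL11, which carry the 5S rRNA and bind MDM2 when ribosome assembly is disturbed, differed under the combination by -0.15 and 0.10 in HCC1954 and by -0.11 and -0.01 in JIMT1. RPLP1 and RPLP2, the acidic proteins of the stalk that recruits elongation factors, differed by -0.14 and 0.15 in HCC1954 and by -0.11 and -0.08 in JIMT1. RPS19, mutated in Diamond-Blackfan anaemia, differed by 0.26 ± 0.16 in HCC1954 and 0.05 ± 0.16 in JIMT1. The RPLP1 arrays of HCC1954 did not overlap for the brightest probe (14.66, 14.59 and 14.58 under the combination, 14.74, 14.76 and 14.73 under DMSO). Another RPLP1 probe was separated the other way (14.04, 13.97 and 14.07 under the combination, 13.86, 13.9 and 13.92 under DMSO). Over the 3 RPLP1 probes the log2 fold change ranged from -0.14 to 0.2. None of these 5 genes, nor RPS6, passed under any treatment in either line.

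Paralogs were set beside their main copies, which the start windows show to differ in some pairs: RPS27 has a run of 9 bases and RPS27L of 2. RPS27L, a p53 target, had 12.23, 12.13 and 12.15 under the combination and 11.97, 12.28 and 11.89 under DMSO in HCC1954, with overlap. It differed by 0.12 ± 0.10 in HCC1954 and -0.03 ± 0.10 in JIMT1, and RPS27 by 0.21 ± 0.12 and -0.02 ± 0.12. RPL39L, a copy of RPL39 without an entry in the promoter table, differed by -0.12 ± 0.12 in HCC1954 and -0.20 ± 0.12 in JIMT1, against 0.22 ± 0.07 and -0.07 ± 0.07 for RPL39. RPL10L was close to the detection limit, with levels of 4.70 to 6.24 over the arrays. RPS27L, RPL39L and RPL10L did not pass under any treatment.

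The untreated lines were compared to see how the same genes differed by cell line. Under DMSO, 35 of 71 members were called in HCC1954 against JIMT1, 6 higher and 29 lower in HCC1954. This was 49.3% of the members, against 69.7% of all genes. The lower calls made up 40.8% of the members and 35.4% of all genes, and the higher calls 8.45% of the members and 34.4% of all genes. All 3 HCC1954 arrays were above all 3 JIMT1 arrays in 7 members and below them in 32. Of all 12109 genes, 71.2% were separated, 4223 above and 4394 below. The median log2 difference was -0.15 for the members and 0 for all genes. Under median scaling it was -0.341 for the members and -0.004 for all genes, and over the member probes taken singly it was -0.234.

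RPL14, a large-subunit protein, had 9.55, 9.15 and 9.79 in HCC1954 and 11.18, 11.30 and 11.14 in JIMT1, the widest of the members (-1.71 ± 0.18, adjusted p = 2.5e-08, limma). Its second probe gave -0.82 ± 0.12. RPL29 followed, with 9.60, 9.70 and 9.22 in HCC1954 and 11.05, 11.16 and 11.16 in JIMT1 (-1.62 ± 0.17, adjusted p = 4.2e-08, limma), and its second probe gave -1.71 ± 0.18. The lines were well separated for both genes by both probes. RPS21 had 11.47, 11.53 and 11.32 in HCC1954 against 12.88, 12.75 and 12.78 in JIMT1 (-1.36 ± 0.11). RPL37 (-1.38 ± 0.14), RPS7 (-1.32 ± 0.14), RPL23A (-1.18 ± 0.10), RPL28 (-0.96 ± 0.08) and RPL36A (-0.95 ± 0.13) made up the 8 widest of the lower calls, with adjusted p of 1.4e-06 or lower (limma).

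Fewer members were higher in HCC1954. RPL39L had 12.27, 12.26 and 12.24 in HCC1954 and 10.64, 10.56 and 10.61 in JIMT1 (1.65 ± 0.12, adjusted p = 1.2e-10, limma), and its second probe gave 1.95 ± 0.11. Its main copy RPL39 went the other way, with 14.09, 14.13 and 14.05 in HCC1954 and 14.45, 14.58 and 14.59 in JIMT1 (-0.45 ± 0.07, adjusted p = 8.8e-06, limma). RPL36A was lower in HCC1954, as given above, and RPL36AL was not called (-0.01 ± 0.08). RPS27L was lower in HCC1954 (-0.29 ± 0.10, adjusted p = 0.016, limma) and RPS27 was not called (-0.11 ± 0.12).

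RPS13 (0.62 ± 0.08) and RPL9 (0.62 ± 0.10) were the next higher in HCC1954, followed by RPL27 (0.35 ± 0.06), RPS18 (0.30 ± 0.07) and RPL27A (0.30 ± 0.08), with adjusted p of 0.0019 or lower (limma). Of the members with special roles, RPS3 was lower in HCC1954 (-0.49 ± 0.10, adjusted p = 0.00014, limma). RPS6 (-0.05 ± 0.09), RPL5 (0.11 ± 0.09), RPL11 (-0.12 ± 0.10), RPLP1 (0.04 ± 0.09), RPLP2 (-0.13 ± 0.10), RPS19 (-0.13 ± 0.16) and RPL13A (-0.21 ± 0.09) were not called.

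The summed log2 level of the 5 markers of other cell types that passed the detection filter (CD68, PECAM1, VWF, COL1A1 and ACTA2) also differed between the lines, with 40.87 to 42.06 in the HCC1954 arrays and 30.75 to 31.84 in the JIMT1 arrays. ACTA2 had a mean of 10.96 in HCC1954 and 4.96 in JIMT1, while PTPRC, CD3E and PDGFRB were detected on 0 arrays of either line. The part of these markers in the line differences was not tested. Within HCC1954 the sum was 41.38 to 41.59 in the combination arrays and 40.87 to 42.06 in the DMSO arrays, and within JIMT1 it was 31.15 to 31.54 in the combination arrays and 31.22 to 31.75 in the DMSO arrays.

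The differences between the lines went with the level of the probe. Of the 12 members below 12 on the log2 scale, 11 were called, with a median of -0.95, and of the 59 members at 12 or above, 24 were called, with a median of -0.11. The rank correlation of level with the absolute line difference was -0.63 over the 71 members and -0.12 over all 12109 genes. These values are descriptions, since all genes share the same arrays and normalization. Of the other 758 genes at 12 or above, 507 were called (66.9%), against 40.7% of the members at that level.

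**Figure D3:**
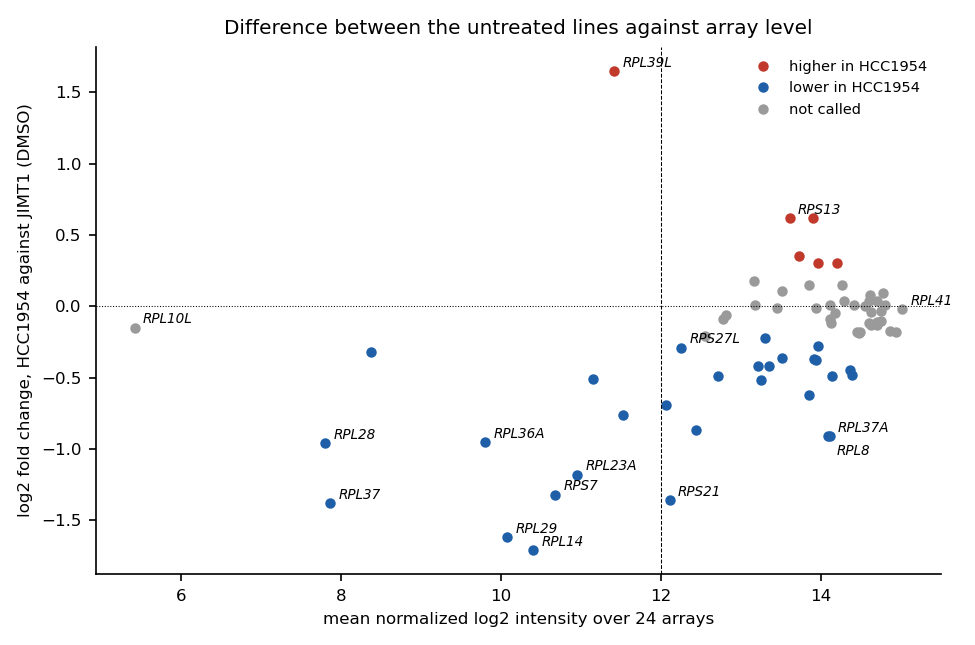
Log2 fold change of the 71 members in HCC1954 against JIMT1 under DMSO (vertical axis) against the mean normalized log2 intensity over 24 arrays (horizontal axis), with the dashed line at 12. Below 12, 11 of 12 members were called, 10 of them lower in HCC1954; at 12 or above 24 of 59 were called.

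Several members had more than 1 probe, and the probes of a gene did not always give the same size. Of the 116 member probes tested singly, 65 were called between the lines, 10 higher and 55 lower in HCC1954, against 63.2% of all probes. Of the 35 probes below 12, 30 were called, with a median of -0.82, and of the 81 at 12 or above, 35 were called, with a median of -0.12. RPL32, named after its values were seen, had a brightest probe with no line difference (-0.03 ± 0.10) and 3 dim probes at -2.14, -0.96 and -2.81. RPLP1's brightest probe gave 0.04 and its others -0.38 and -0.71, and RPS27's gave -0.11 and its others 0.31 and 0.75. No gene had probes called in opposite directions. Probe sequences were not used here, and whether single probes also bound pseudogene transcripts or particular isoforms was not tested.

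For the combination in JIMT1, 16 of 116 member probes were called when tested singly, 2 higher and 14 lower, against 16.6% of all probes. A dim probe of RPS29, also named after its values were seen, rose with 7.93, 7.41 and 7.72 under the combination against 6.75, 6.79 and 6.98 under DMSO (0.85 ± 0.18, adjusted p = 0.0029 over all probes, limma). The 3 bright probes of RPS29 gave 0.01, -0.04 and -0.17 in the same comparison. The difference in JIMT1 was thus seen by 1 of its 4 probes. In HCC1954 that dim probe had 8.19, 8.24 and 8.21 under the combination and 7.61, 7.37 and 8.02 under DMSO, and was not called. With BYL719 alone it differed from DMSO by 0.51 in HCC1954 and 0.38 in JIMT1, and neither was called. With GSK2334470 alone its arrays overlapped with DMSO in both lines.

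**Figure D4:**
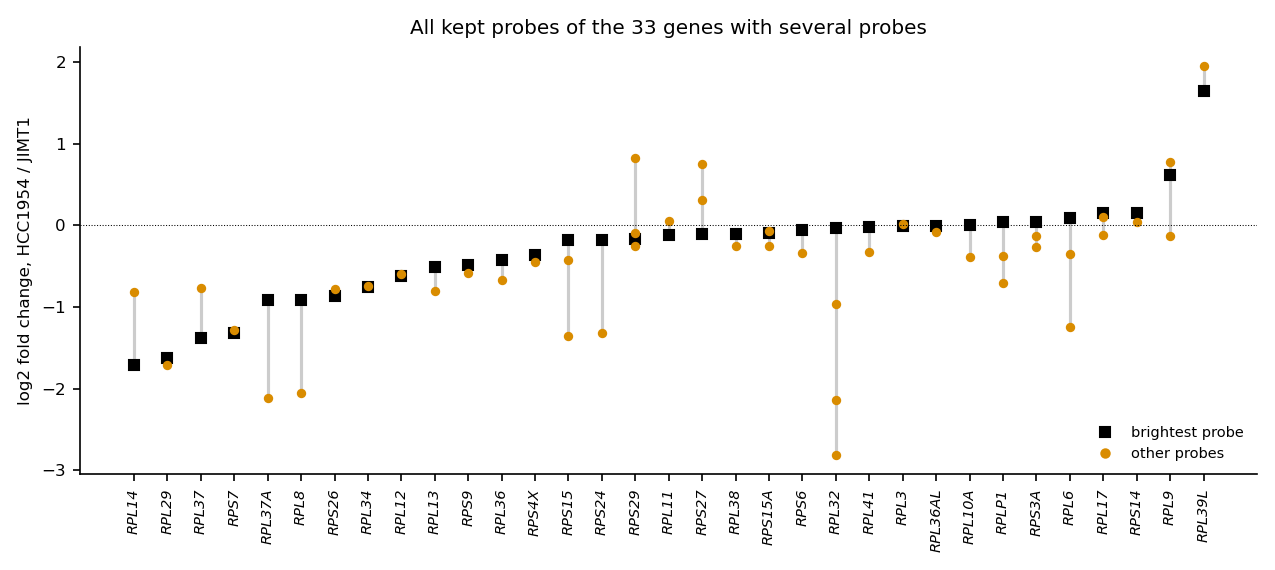
Log2 fold change in HCC1954 against JIMT1 under DMSO for every kept probe of the 33 members with several probes; black squares are the brightest probes, used for the gene, and orange points the others. The probes of RPL29, RPS7 and RPL39L lie close together, and those of RPL32 range from -0.03 to -2.81.

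Other parts of the translation machinery gave the setting of these values. Among 13 other mRNAs with a terminal oligopyrimidine tract, mostly elongation and initiation factors, 1 rose under the combination in HCC1954, EIF4B, an S6 kinase substrate (0.35), and 0 were called in JIMT1, with medians of 0.05 and -0.01. Of 12 targets and regulators of mTORC1, 0 were called in HCC1954, and in JIMT1 PDCD4 rose (0.56) while EIF4E (-0.69) and RPS6KA1 (-0.49) fell. Of all genes, 15.3% were called under the combination in HCC1954, 6.96% higher and 8.3% lower. In JIMT1 it was 21.3%, 12.5% higher and 8.84% lower.

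Factors that carry ribosomal proteins and assemble them into subunits were counted in the same way. Of 12 chaperones and importers of ribosomal proteins, 3 fell under the combination in HCC1954 and 5 in JIMT1, among them LTV1, a small-subunit assembly factor (-0.58 in both lines), and PDCD2L (-0.35 in HCC1954 and -0.82 in JIMT1). Of 37 ribosome assembly factors, 21 fell in HCC1954 and 18 in JIMT1, with medians of -0.41 and -0.33, where 8.3% of all genes in HCC1954 and 8.84% in JIMT1 were lower, and LYAR, a nucleolar protein, fell by 1.04 in HCC1954 and 1.22 in JIMT1 on the log2 scale. BYL719 alone lowered 10 of these 37 in HCC1954 (1.89% of all genes) and 20 in JIMT1 (5.15% of all genes), and 1 and 5 of the 12 chaperones and importers. Of 76 mitochondrial ribosomal proteins, 11 fell in HCC1954 and 20 in JIMT1, with medians of -0.16 and -0.18, and 0 rose in either line. Among 4 ribosomal proteins named outside the symbol rule, RPL22L1, a copy of RPL22, fell by 0.45 in HCC1954 and 0.72 in JIMT1 on the log2 scale, and 0 of the other 3 were called. The lists stood at different levels on the array and were not tested against each other.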

How the data were processed

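Total RNA was extracted with an RNeasy kit, labelled with biotin as cRNA and hybridised to Illumina arrays with 47323 probes. The deposited values used were the linear intensity of each probe, averaged over its beads and with no background subtracted, its detection p-value and its bead count. The submitters' processing notes name GenomeStudio. A second set of intensities processed by the authors, by a method not given in the sources used here, served as an alternative, and 24 columns of bead standard errors were left out.

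Intensities were background-corrected and quantile normalized with neqc (limma 3.58.1, R 4.3.3, offset 16), giving log2 values that understate the change of dim probes. The filter kept 21256 probes, those with a detection p-value under 0.05 on every array of 1 or more groups. Probes with 1 gene symbol in the array annotation (30113) gave 12109 genes, each represented by its brightest probe. One limma model of 8 group means was fitted over 24 arrays (residual degrees of freedom 16, prior 3.92). P-values were adjusted over all genes by Benjamini-Hochberg, with 0.05 as the threshold. The number of arrays limits the precision. Since no source used here says that the arrays of a group came from separate cultures, p-values measure only the spread between arrays, which may be technical.

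Members and gene lists were chosen with earlier results of these data known. Named were, per comparison, the called members (at most 8 per direction, otherwise the 3 widest), members with special roles, paralogs, and the brightest and dimmest. Alternatives covered background, scaling, filter, probe choice, arrays of 1 line, the replicate number as a block, each array left out, and the methods' t-test. Sequences are from RefSeq (GRCh38.p14), and plots were drawn with matplotlib.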

Additional observations from a re-analysis of the deposited data

Results flagged for a closer look

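One result among the members differed between the lines by a direct test. The BYL719 effect on RPL28 was 0.51 higher in HCC1954 than in JIMT1 on the log2 scale (SE 0.11, adjusted p = 0.017, limma interaction over all 12109 genes). RPL28 differed from DMSO by 0.09 in HCC1954 and by -0.42 in JIMT1. The call was lost without JIMT1 BYL719 replicate 2 (0.445, adjusted p = 0.057) and without JIMT1 DMSO replicate 3 (0.481, adjusted p = 0.054), and under median scaling (0.427, adjusted p = 0.92). Without HCC1954 BYL719 replicate 3 it stood at the threshold (0.491, adjusted p rounded to 0.05). It rests on a single probe at 7.8 on the log2 scale.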

How the results depend on the processing

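Counts of called members were small, and several moved with the processing; the cause was not tested. Each array was scaled to its median in place of quantile normalization. The count for the combination against DMSO was then 0 in HCC1954, against 2 as reported, and 1 in JIMT1, against 8. That 1 member was RPL23, which was not among the 8. Over all genes 802 against 1848 and 946 against 2582 were called. Under that scaling the count was also 0 for the combination against BYL719 and against GSK2334470 in both lines. It was 0 too for BYL719 and for GSK2334470 against DMSO in JIMT1, and for the line difference in the BYL719 effect. Median scaling shifted the median of all genes by -0.123 for the combination against DMSO in HCC1954, 0.11 for GSK2334470 against DMSO in HCC1954, -0.238 for the combination against GSK2334470 in HCC1954 and -0.179 for the line difference in the combination effect. Without the detection filter, with the arrays of HCC1954 only and with each probe tested singly, 0 members were called in HCC1954 for the combination against DMSO and against BYL719. Tested singly, 16 probes were called for the combination against DMSO in JIMT1, 2 and 8 for the combination against BYL719 and GSK2334470 in JIMT1, and 65 between the lines. The authors' processed values gave 2 for the combination against GSK2334470 in HCC1954. The methods' t-test gave 0 after adjustment for every count with 1 to 5 calls that compares treatments within a line. At an unadjusted p under 0.05 it gave 8 members for the combination against DMSO in HCC1954 and 17 in JIMT1. No such unadjusted count was made over all genes.

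The replicate numbers showed no clear pairing of the samples: same-numbered arrays deviated with r of -0.21 to 0.23, and 8 of 36 correlated best with their own number. These correlations cannot show whether the design was paired. With the replicate number as a block, 1 member was called for the combination against DMSO in HCC1954 and 0 for the combination against BYL719 in HCC1954; it was 7 for the combination against DMSO in JIMT1 and 29 between the lines.

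Leaving out 1 array at a time gave 0 to 3 members for the combination against DMSO, 0 to 1 against BYL719 and 1 to 5 against GSK2334470 in HCC1954. In JIMT1 it gave 3 to 7 for the combination against DMSO, lowest without DMSO replicate 1, and 2 to 6 against GSK2334470, lowest without GSK2334470 replicate 2. It gave 33 to 35 between the lines, 0 to 1 for the line difference in the combination effect and 0 to 1 for that in the BYL719 effect. With the mean of all probes in place of the brightest, the line difference reversed for RPLP1 (-0.349) and RPS27 (0.318). Among values of named members that were called, all 324 kept their direction under the other settings and 279 their call, and with 1 array left out all 234 kept their direction and 187 their call. Among those not called, the sign held in 1968 of 2041 and in 1468 of 1638. The bead arrays limit small changes: the members' 95% intervals reached a median of 0.21 to either side.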
